A study of Mus musculus with 2 samples.

Results

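Oxidative phosphorylation is run by 5 protein complexes of the inner mitochondrial membrane, and most of their subunits are encoded in the nucleus. The nuclear genes were taken as the protein-coding genes of GENCODE release M21 whose symbols name a subunit: Nduf for complex I, Sdh for complex II, Cyc1 and Uqcr for complex III, Cox4i to Cox8 for complex IV and Atp5 for complex V. This gave 86 genes out of 22028 protein-coding genes, 37 for complex I, 4 for complex II, 9 for complex III, 18 for complex IV and 18 for complex V. They carry 85 symbols, because Atp5o has 2 entries. Their levels came from polyA plus RNA-seq of the facial prominences, the swellings from which the face forms. The mice were of the B6NCrl strain, the embryos 12.5 days old and of mixed sex, and the labels name no allele and no agent. Both libraries belong to 1 group, and each is a pool, of 120 embryos for replicate 1 and 88 for replicate 2. The labels describe no other condition, so the genes are described across complexes, isoforms, transcripts and annotation releases, and an exact sign-flip test on 2 libraries could not go below p = 0.5. TPM (a level corrected for transcript length and scaled to the same total in each library) is used throughout, and means carry the SD over n = 2.

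As background, complexes I and II take electrons from NADH and succinate and pass them to coenzyme Q. Complex III hands them to cytochrome c, complex IV gives them to oxygen, and the proton gradient built on the way drives ATP synthase, which is complex V. Several subunits of complexes IV and V exist as isoforms encoded by separate genes, some of them known for use in muscle, testis or lung, and the nuclear factors NRF1, GABP and YY1 are known regulators of this gene set.

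Summed expected counts (estimated reads per gene, which need not be whole) were 28705073 in replicate 1 and 41092194 in replicate 2, and spike-in RNAs took 2.85% and 3.10% of them. The tissue label was checked against 8 markers of facial mesenchyme, all of which reached a TPM of at least 1 in both libraries, with Msx1 at 318.59 and 308.35 TPM. The pools differed in 3 of the 8 by a log2 ratio of at least 0.5 in size: Barx1 went from 168.11 TPM in replicate 1 to 83.93 in replicate 2, Dlx5 from 80.75 to 54.78 and Alx1 from 102.62 to 149.87. Head muscle markers reached it in 7 of 8 genes (all but Ckm), pericyte and mural markers in 6 of 6, neuron markers in 4 of 4, erythroid markers in 4 of 4, heart markers in 2 of 4, germ cell markers in 0 of 5 and brown fat markers in 0 of 3. In bulk tissue, fewer cells of a type and less RNA per cell cannot be told apart.

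Some members share their coding sequence with other genes, and this set limits on 2 of the lowest levels below. The first 100 coding bases of Ndufb4, an accessory subunit of complex I on chromosome 16 (37647170 to 37654453, mm10, minus strand), are shown because the processed pseudogene Ndufb4c on chromosome 15 (73809507 to 73809896, minus strand) holds exactly the same letters.
Ndufb4: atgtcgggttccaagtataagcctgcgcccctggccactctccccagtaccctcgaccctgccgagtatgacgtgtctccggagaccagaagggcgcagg
Over all 390 coding bases of Ndufb4 the pseudogene differed at 0 bases, so no read from inside this stretch can be told apart. The contrary case is the c subunit of ATP synthase, the ring-forming proton carrier, which 3 genes encode. The last 75 residues of Atp5g1, Atp5g2 and Atp5g3 were 100% identical, while the 225 bases encoding them were between 78.7% and 84.9% identical from pair to pair. The first 60 of those bases are shown in the same order, with capitals at the 14 positions where the 3 genes differ.
Atp5g1: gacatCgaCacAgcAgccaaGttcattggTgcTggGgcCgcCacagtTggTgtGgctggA
Atp5g2: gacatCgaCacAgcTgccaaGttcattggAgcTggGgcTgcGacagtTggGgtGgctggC
Atp5g3: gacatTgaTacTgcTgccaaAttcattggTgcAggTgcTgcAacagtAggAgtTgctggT
These are coding bases 184 to 243 of Atp5g1, 214 to 273 of Atp5g2 and 199 to 258 of Atp5g3, in the M21 transcripts, and each stretch encodes the same 20 residues.

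The nuclear subunit genes were, as a set, among the more abundant transcripts of the facial tissue. Of the 86 genes, 83 were detected, meaning a TPM of at least 1 in both libraries, against 60.7% of all protein-coding genes. A level of at least 100 TPM in both libraries was reached by 75, against 7.26% of all protein-coding genes. Their median was 281.36 TPM in replicate 1 and 274.365 in replicate 2, where detected protein-coding genes had medians of 21.5 and 21.43. Together they held 2.77% and 2.66% of all TPM, a total that includes the spike-ins at 65218.2 TPM in replicate 1 and 71717.6 in replicate 2. The 3 genes not detected were Cox8c with 0 counts in both libraries, Cox7b2 with 1 and 0 counts, and the second entry of Atp5o, which had 0 counts in both and is absent from the older release M4.

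**Figure D1:**
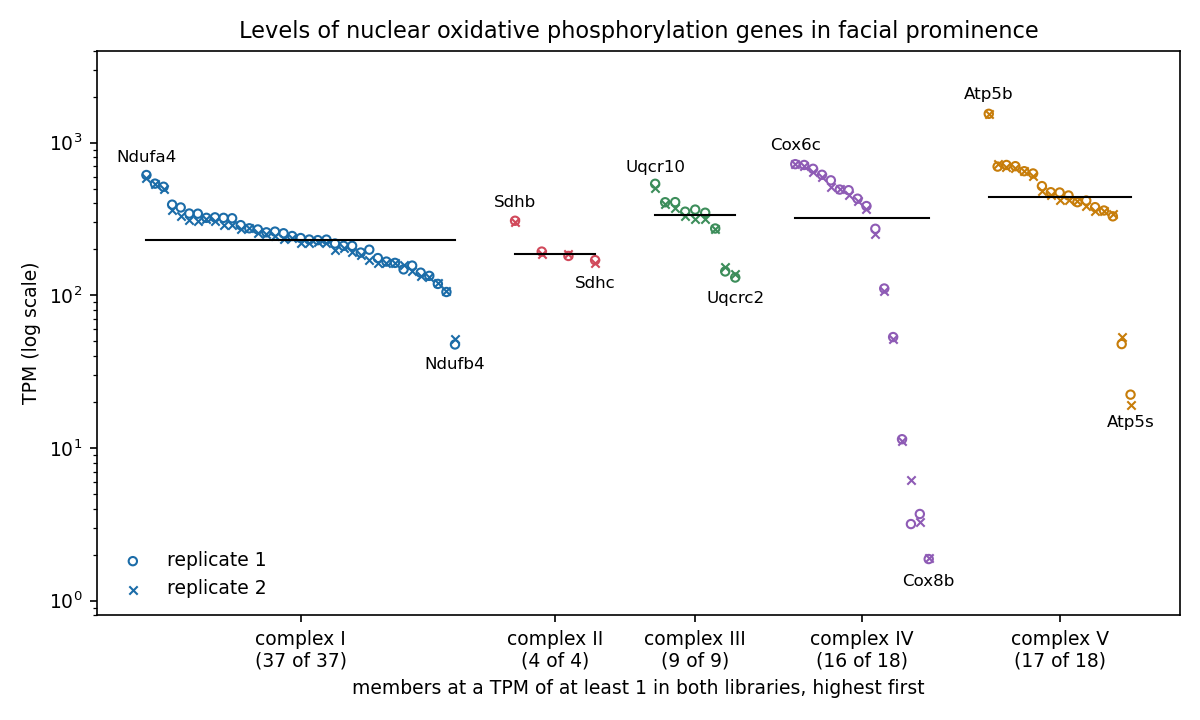
TPM on a log axis of each detected member in replicate 1 (circles) and replicate 2 (crosses), ordered from highest to lowest within each complex, with the median over all members of the complex as a black line (mean of the medians of both libraries) and the highest and lowest member named. Complex II spans 1.83-fold and complex III 3.85-fold, while complex IV runs from Cox6c at a mean of 722 TPM to Cox8b at 1.89 TPM.

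Complex V had the highest median, 460.925 TPM in replicate 1 and 420.615 in replicate 2, followed by complex III at 352.94 and 318.11, complex IV at 328.45 and 309.07, complex I at 237.11 and 222.31 and complex II at 187.145 and 186.915. The library values of complexes III and IV overlapped, so their order does not exceed the spread between the replicates, whereas each other step in the order was larger than it. The place of complex IV turned with the members counted: its median was 399.185 TPM over detected members, above complex III, and 11.27 without genes of fractional counts, below all others. The highest detected member exceeded the lowest by 12.1-fold in complex I, 1.83-fold in complex II, 3.85-fold in complex III, 383-fold in complex IV and 74.5-fold in complex V.

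In complex I, which takes electrons from NADH, all 37 genes were detected and 36 reached 100 TPM. Ndufa4 was highest at 613.69 and 584.23 TPM (599 ± 20.8). Its product, named as a complex I subunit, is now known as a subunit of complex IV. Ndufc1, an accessory subunit, followed at 538.76 and 535.66 TPM, and Ndufab1, the mitochondrial acyl carrier protein, at 514.09 and 495.17. At the other end stood Ndufb3 at 118.7 and 119.51 TPM, the iron-sulfur subunit Ndufs1 at 105.07 and 106.12, and Ndufb4 at 47.61 and 51.68. The middle of the order was not resolved, since 24 of 36 neighbouring pairs had overlapping libraries. The 7 genes of the catalytic core, which carry the flavin and the iron-sulfur clusters, had medians of 190.46 and 184.26 TPM, and the 30 accessory genes had medians of 259.855 and 248.68. The core was picked out with the levels known, and its means ran from 106 to 226 TPM, inside the range of 49.6 to 599 of the accessory genes.

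In complex II, succinate dehydrogenase, Sdhb, the iron-sulfur subunit, was highest at 307.75 and 303.28 TPM. The membrane anchor Sdhd stood at 193.3 and 187.57, the flavoprotein Sdha at 180.99 and 186.26, and the other anchor Sdhc at 169.86 and 163.87. The 4 genes kept this order in both libraries, and no neighbouring pair overlapped.

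In complex III, the small subunit Uqcr10 was highest at 537.62 and 500.89 TPM, ahead of Uqcrb at 406.86 and 396.27 and Uqcrq at 407.57 and 372.18, which overlapped. Cyc1, the cytochrome c1 that passes electrons on, stood at 273.87 and 271.84 TPM. Below it were Uqcrfs1, the Rieske iron-sulfur protein, at 143.25 and 153.27, and the core protein Uqcrc2 at 130.71 and 138.72. Uqcrc1, the partner core protein, was at 352.94 and 333.13 TPM, so the core pair was not at equal levels in either library.

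In complex IV, cytochrome c oxidase, 11 of 18 genes reached 100 TPM and the other 7 were isoform genes. Cox6c was highest at 722.77 and 722.18 TPM, followed by Cox4i1 at 714.03 and 704.42 and Cox8a at 673.86 and 644.48. The 11 genes ended with Cox7b at 272.65 and 250.27 TPM and Cox7a2l, a relative of Cox7a2 known for its part in joining complexes III and IV, at 110.76 and 106.19. Only 1 of 15 neighbouring pairs of detected genes overlapped between libraries.

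In complex V, Atp5b, the catalytic beta subunit on chromosome 10 (128083273 to 128090391), was the highest member of all at 1544.9 and 1537.36 TPM (1541 ± 5.33), rank 34 among protein-coding genes. Atp5a1, the alpha subunit that pairs with it, followed at 696.8 and 728.57 TPM, then the c subunit gene Atp5g3 at 714.01 and 694.84. These libraries overlap, since Atp5g3 was the higher of the pair in replicate 1. Genes of the rotor and of the stalks were spread over the range. Of the central stalk, Atp5e (epsilon) stood at 649.95 and 647.11 TPM, Atp5c1 (gamma) at 407.21 and 412.7 and Atp5d (delta) at 377.84 and 357.54. Of the outer stalk, Atp5h stood at 701.16 and 677.6 TPM, Atp5j at 628.12 and 607.22, the expressed entry of Atp5o at 473.39 and 450.85 and Atp5f1 at 329.12 and 342.37. At the lower end were Atp5g2 at 47.89 and 53.25 TPM and Atp5s, known as a factor coupled to the synthase rather than a core part, at 22.34 and 19.01.

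For 5 subunits of complex IV, a single gene carried nearly all of the transcript level in this tissue. Cox4i1 exceeded Cox4i2, the isoform known from lung and from low oxygen, by 62.6-fold in replicate 1 and 63.2-fold in replicate 2. Cox4i2 (chromosome 2, 152754173 to 152765037) stood at 11.4 and 11.14 TPM on 132 and 183 counts. It held 1.57% and 1.56% of the summed TPM of both genes. By counts its share was 1.54% in replicate 1, with an exact Clopper-Pearson 95% interval of 1.29% to 1.82%, and 1.52% in replicate 2, with an interval of 1.31% to 1.76%. Such intervals describe counting error alone, because reads copied by PCR and carrying no molecular tag do not each stand for a molecule. The 2 proteins are 48.3% identical.

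**Figure D2:**
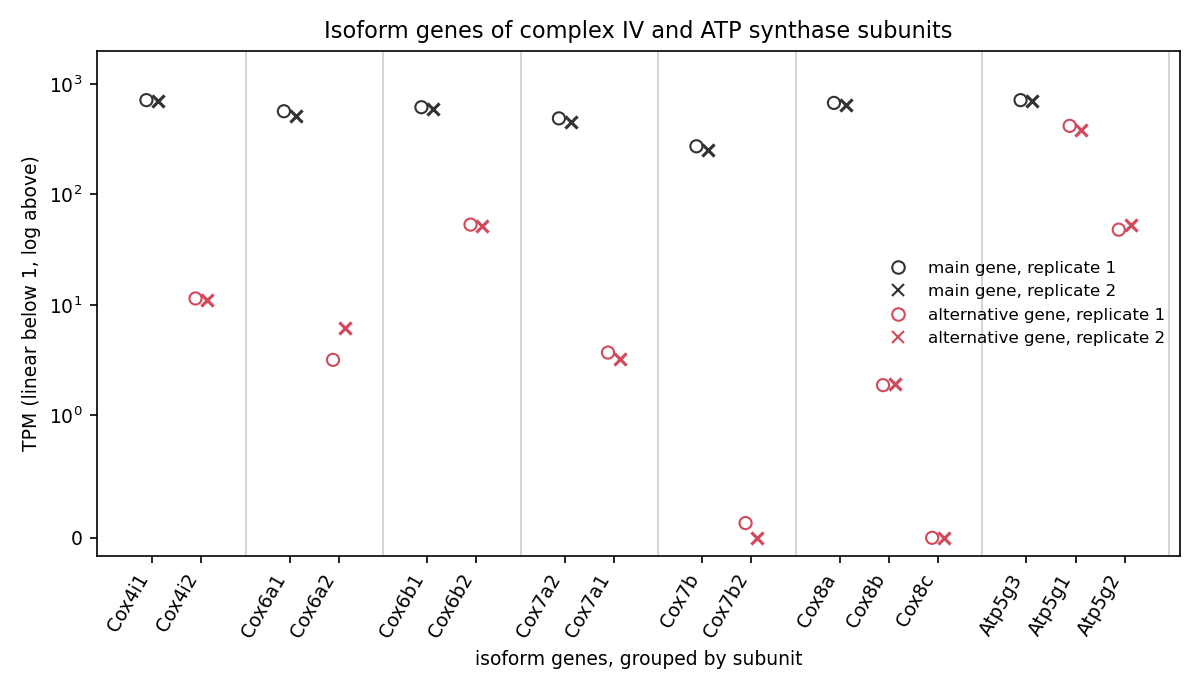
TPM of each gene of 7 isoform sets, on an axis that is linear below 1 and logarithmic above, with circles for replicate 1 and crosses for replicate 2, black for the main gene and red for the alternatives. The alternatives of complex IV lie at 53.2 TPM or less while their main genes lie above 250, and Atp5g1 is the single alternative within 2-fold of its main gene.

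The muscle and heart isoforms were low but present. Cox6a2, the heart and skeletal muscle form, stood at 3.17 and 6.19 TPM on 34 and 94 counts, beside Cox6a1 at 566.3 and 509.35. Its share of the set was 0.557% and 1.2%, and the count intervals, 0.474% to 0.954% and 1.19% to 1.8%, did not overlap. Cox7a1, also a heart and muscle form, stood at 3.69 and 3.25 TPM on 20 and 25 counts, or 0.751% and 0.712% of the TPM that it and Cox7a2 share. Cox8b, a muscle and brown fat form that rodents retain, stood at 1.87 and 1.9 TPM on 9 and 13 counts, 0.277% and 0.294% of the Cox8 set. Beside these, the 8 head muscle markers summed to 417.83 TPM in replicate 1 and 511.14 in replicate 2, and all 7 detected ones were higher in replicate 2, as Cox6a2 was. The 4 heart markers went the other way, from 15.24 to 4.21 TPM, led by Nppa at 8.29 and 0.5, and the 3 brown fat markers summed to 0.4 and 1.14 TPM. Of the 3 muscle isoforms, Cox6a2 alone moved between the libraries by more than the log2 threshold of 0.5 used below. The part of muscle RNA in this difference was not tested.

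Cox6b2, described as the testis form of this subunit, was the highest alternative in complex IV. On chromosome 7 (4751792 to 4753094) it stood at 53.24 and 51.67 TPM on 401 and 553 counts. That was 7.96% and 7.99% of the summed TPM with Cox6b1, which stood at 615.87 and 595.14. Of the Cox6b2 level, 16.8% and 20.75% was given to a retained-intron transcript, Cox6b2-205. The other testis-linked isoforms were at or near 0. Cox7b2 had 1 count and 0 counts beside Cox7b, and Cox8c had 0 counts in each library. A count of 0 leaves room for 0.0535% and 0.0394% of the Cox8 set, taken as 3 counts of its total. The germ cell markers summed to 1.14 and 1.52 TPM over 5 genes, with Tnp1 at 0 in both libraries, against 53.24 and 51.67 for Cox6b2 alone.

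Genes for the c subunit of ATP synthase were shared more evenly. Atp5g3 led, with Atp5g1 at 417.46 and 386.32 TPM, which was 35.4% and 34.1% of the 3-gene sum, and Atp5g2 at 4.06% and 4.69%. Atp5g3 exceeded Atp5g1 by 1.71-fold and 1.8-fold. The share of Atp5g2 rests on how reads were divided with a pseudogene, which is taken up below, and with the TPM of near-identical copies added to each gene it came to 23.8%. This sum was made after the values had been seen.

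The genes that assemble these complexes had lower levels than the subunits, with medians of the mean TPM between 31.5 and 52.0. All 14 assembly factors of complex I were detected, with medians of 37.645 and 39.13 TPM, led by Acad9 at 76.92 and 76.86 and Ndufaf2 at 72.3 and 73.46. The 4 factors of complex II had medians of 31.62 and 31.4 TPM and the 6 of complex III 38.04 and 39.48, where Uqcc2 stood apart at 292.18 and 265.89. For complex IV, 19 of 20 were detected (Pet117 was at 0 counts), with medians of 37.965 and 39.325 TPM and with Coa3 highest at 163.76 and 157.25. Atpif1, the inhibitor of ATP synthase, was high at 948.38 and 900.16 TPM, above every nuclear subunit but Atp5b. Of the electron carriers, somatic Cycs stood at 55.88 and 51.07 TPM and testis Cyct at 0 counts, and all 11 coenzyme Q genes were detected with medians of 28.8 and 24.89. No gene of these lists moved between the libraries by a log2 ratio of 0.5.

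All 12 listed regulators were detected, with medians of 26.73 and 26.935 TPM. Nrf1 stood at 56.52 and 58.68 TPM, the GABP subunits Gabpa and Gabpb1 at 30.75 and 32.59 and at 52.17 and 55.98, Yy1 at 16.35 and 18.12 and Tfam, which packs and transcribes mitochondrial DNA, at 58.8 and 69.42. The coactivators Ppargc1a and Ppargc1b, known from energy-demanding tissue, were low at 2.59 and 3.28 and at 1.94 and 2.42 TPM, where Pprc1 of the same family was at 31.18 and 29.59. Of genes linked to low oxygen, Hif1a stood at 93.23 and 94.73 TPM, Higd1a at 121.1 and 99.73 and Ndufa4l2, the low-oxygen relative of Ndufa4, at 2.66 and 2.29. The 13 subunits encoded by mitochondrial DNA summed to 18182.6 and 18913.4 TPM against 27744.1 and 26623 for the 86 nuclear genes.

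Promoter windows of 250 bases before to 50 after the start site were matched in RefSeq (GRCm38.p6) for 69 members, of which 5 had more than 1 start site. Members without a match included Atp5a1, Atp5mpl, Cox4i1, Cox4i2, Cox6a2, Cox6c, Cox8c, Cyc1, Sdhc, Uqcrb, Uqcrc2 and Uqcrq. The windows were searched on both strands for the letters of 4 motifs, and a match is a description of the letters, not of binding. The NRF1 letters GCGCATGCG were held by 8 of 69 members, 11.6%, against 4.03% of detected protein-coding genes in the table. Among those of at least 100 TPM in both libraries, the level that most members reach, the share was 5.45%. The 8 sites are shown in 30-base stretches along the gene, with the matching letters in capitals, because they occur in genes of complexes I, III, IV and V.
Ndufa8: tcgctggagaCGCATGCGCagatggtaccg
Ndufa11: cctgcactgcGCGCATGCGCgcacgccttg
Uqcrc1: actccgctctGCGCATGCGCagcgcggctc
Uqcr11: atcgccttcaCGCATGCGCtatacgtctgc
Cox6a1: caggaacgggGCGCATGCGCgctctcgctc
Atp5g2: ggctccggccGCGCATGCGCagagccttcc
Atp5k: tttcactgcgGCGCATGCGCctttctggct
Atp5l: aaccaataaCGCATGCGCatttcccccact
In 5 of the 8 the letters matched on both strands at once. They began between 241 bases before the start site, in Atp5l, and 31 bases into the gene, in Uqcrc1, with Atp5g2 at -42, Atp5k at -50 and Ndufa11 at -60. The levels of these 8 genes ran from 47.89 TPM in Atp5g2 to 566.3 in Cox6a1 in replicate 1, so the letters did not mark 1 level. The other windows lie at chr2:36049328-36049357 for Ndufa8, chr9:108936668-108936697 for Uqcrc1 and chr10:80406807-80406836 for Uqcr11. The ETS letters CCGGAAGT, the core bound by GABP, were held by 5 of 69, 7.25%, against 8.82%, and the TATA box letters TATAAA by 7 of 69, 10.1%, against 8.68%. Among detected genes of at least 100 TPM the shares were 12.1% for ETS and 9.48% for TATA.

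The YY1 letters AAGATGGC were held by 10 of 69 members, 14.5%, against 5.12% of detected genes. Among detected genes of at least 100 TPM the share was 7.5%. Of the 10 members, 8 held the letters on the gene's own strand after the start site, 11.6% against 2.38% of detected genes. For this position no share is given over genes of at least 100 TPM. In these 8 members the first letter fell between 23 and 39 bases into the gene. In 7 of the 8 the ATG inside the match was the start codon itself, as read from the M21 coding sequence. This check was run for members alone. No share over all detected genes can be set beside the count, and it is not read as a trait of the members. The 7 stretches are shown with the match in capitals.
Ndufa3: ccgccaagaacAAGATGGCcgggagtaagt
Ndufa9: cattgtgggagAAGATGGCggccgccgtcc
Ndufb8: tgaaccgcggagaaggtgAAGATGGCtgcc
Ndufc1: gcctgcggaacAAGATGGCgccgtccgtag
Ndufs4: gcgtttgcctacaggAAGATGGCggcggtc
Ndufs6: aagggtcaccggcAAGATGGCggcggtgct
Ndufs7: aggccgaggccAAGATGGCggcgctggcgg
All 7 are genes of complex I. The 8th, Atp5j2 of complex V, holds the letters 24 bases into the gene, but the coding sequence compared did not begin there. For each gene this was 1 sequence, from the complete coding transcript of highest share, and other coding transcripts were not checked. The window of Ndufc1, the highest of the 7, is chr3:51408915-51408944 on the minus strand. When the search was limited to the bases before the start site, YY1 matches fell to 1.45% of members, against 2.32% of detected genes. Among detected genes of at least 100 TPM that share was 3.71%. Atp5j, a gene that overlaps Gabpa on the opposite strand, holds the letters at -88.

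The libraries gave nearly the same levels for the members. The log2 ratio of (TPM + 1) in replicate 2 over replicate 1 was within 0.2 for 79 of 83 detected members. The same share was not computed over all detected protein-coding genes, so this count is not read as particular to the members. The ratio reached an absolute value of 0.5 in 1 member, Cox6a2, against 2.09% of detected protein-coding genes. The call was lost, leaving 0 members, with a pseudocount of 5 TPM and with a minimum mean of 5 TPM. These ratios set 1 library against 1 library, so they have no replicate check and no p-value. Cox6a2 had a log2 ratio of 0.79, and its count ratio had an exact 95% interval of 1.3 to 2.96.

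**Figure D3:**
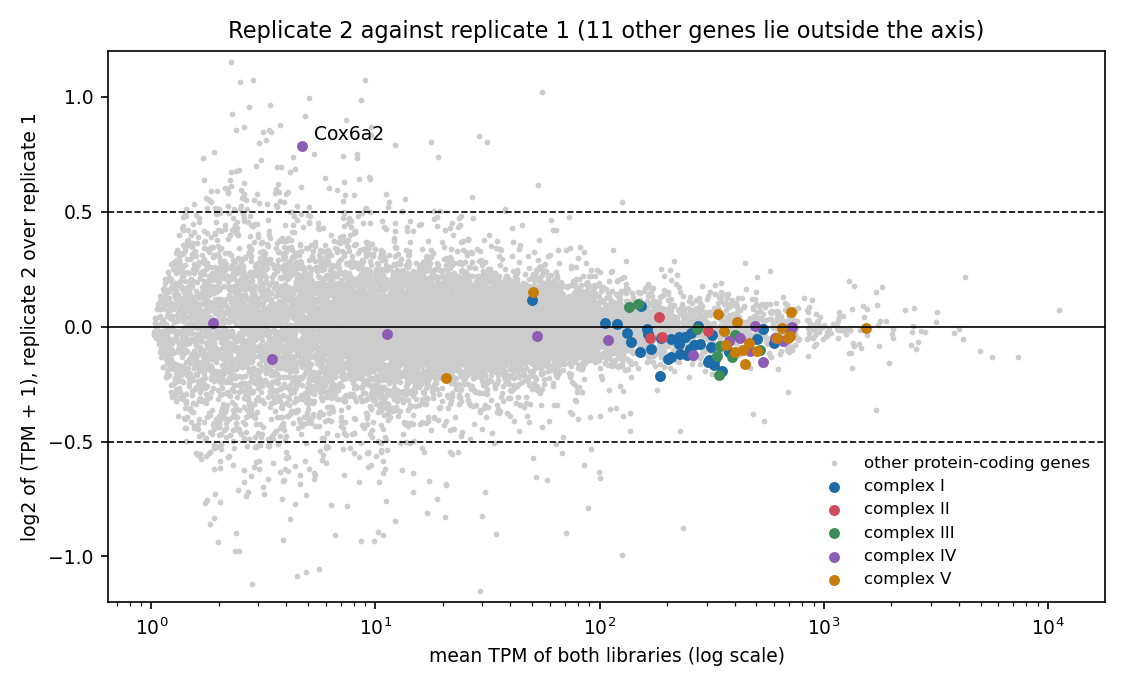
Log2 ratio of (TPM + 1) in replicate 2 over replicate 1 against the mean TPM on a log axis, for detected protein-coding genes (grey) and members (coloured by complex), with dashed lines at the threshold of 0.5 in either direction; 11 other genes lie outside the axis. Cox6a2 is the member above the line, and the bulk of the members lies in a narrow band just under 0.

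The small differences leaned one way. In replicate 2, 68 of 83 members were lower, against 49.5% of detected protein-coding genes, and the median log2 ratio was -0.05 where that of all detected genes was 0.00. The interval of the count ratio lay below 1 for 43 members, against 15.4% of detected protein-coding genes, and above 1 for 5, against 14.6%. These intervals hold counting error only, not the spread between pools, and they are narrowest for abundant genes. The lean was present in each complex, with 32 of 37 lower in complex I, 3 of 4 in II, 7 of 9 in III, 13 of 16 in IV and 13 of 17 in V. Lowest were Atp5s at -0.22, Ndufv3 (a flavoprotein-module subunit of complex I) at -0.21, Uqcr11 (a small subunit of complex III) at -0.21, Ndufa7 at -0.19 and Ndufa1 at -0.17. For Atp5s the counts, 366 and 522, showed no such fall, with a count ratio interval of 0.872 to 1.14, while its estimated length went from 987.57 to 1148.87 bases. Highest after Cox6a2 were Atp5g2 at 0.15, Ndufb4 at 0.12, Uqcrfs1 at 0.10 and Ndufv1, the NADH-binding subunit, at 0.09. Atp5g2 and Ndufb4 share reads with copies, which are taken up below. With the TPM of copies added, a choice made after the values had been seen, Atp5g2 came to 401.78 and 392.5 TPM. Ndufb4 with copies came to 290.71 and 294.71, and the count ratio interval of Ndufb4 alone was 0.878 to 1.12.

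Markers of other cell types also differed between the pools. Neuron markers were lower in replicate 2 in 4 of 4 genes, from a sum of 363.52 to 272.38 TPM, and erythroid markers in 4 of 4, from 11106.9 to 10213.5. The mitochondrially encoded subunits went the other way in 9 of 13, where 6717 of 13382 detected protein-coding genes were higher in replicate 2. The other 4 fell, and the largest moves of the list were among them. mt-Nd4l went from 92.34 to 49.07 TPM, a log2 ratio of -0.90, and mt-Nd3 from 264.26 to 192.34, a log2 ratio of -0.46. The part of cell make-up in the lean was not tested.

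Transcript length moved with the lean as well. Members are short, with a median length of 671 bases against 2459 for all detected protein-coding genes. Among all genes of at least 100 TPM, 74.9% of those between 500 and 1000 bases were lower in replicate 2, with a median log2 ratio of -0.04, beside 44 of 50 members with a median of -0.06. Among those under 500 bases, 88.6% were lower, with a median of -0.07, beside 11 of 12 members with a median of -0.10. Among those between 2000 and 4000 bases, 33.8% were lower, and the 3 members of that length, Ndufs1, Sdha and Atp5a1, were all higher in replicate 2. The members counted here are all detected ones, without the minimum of 100 TPM. Over all detected genes without that minimum, 64.2% were lower under 500 bases, 65.2% between 500 and 1000 and 46.2% between 2000 and 4000. The part of length in the lean was not tested. When TPM was scaled on the summed spike-ins, which multiplies all genes of a library by 1 factor, the median of all detected genes moved to -0.13 and that of the members to -0.19.

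Both libraries were also quantified against the older annotation release M4, which gives the same reads other gene models. Of the 85 members present in both releases, 5 differed by a log2 TPM ratio of at least 0.5 with the same sign in both libraries, against 3.99% of protein-coding genes in both releases. For Ndufa11, a complex I subunit, M21 gave 321.53 and 290.35 TPM and M4 gave 59.92 and 54.02. Its counts hardly differed, 2665 against 2682 in replicate 1, but the mean transcript length used was 548.6 bases in M21 and 2661 in M4. Ndufs4, an accessory subunit whose loss is a model of Leigh syndrome, showed the same pattern, with 229.75 and 222.31 TPM against 94.14 and 90.82, and a length of 670.82 against 1534 bases. Atp5s stood at 22.34 and 19.01 TPM against 11.07 and 11.73, with both its counts and its length changed.

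**Figure D4:**
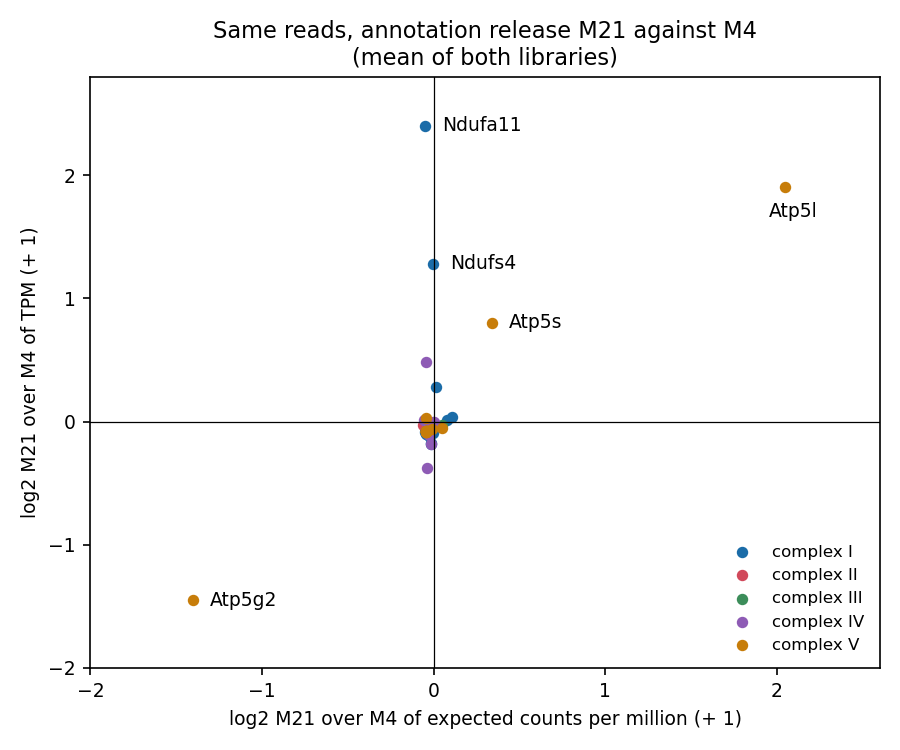
Log2 ratio of M21 over M4 in TPM (vertical) against that in expected counts scaled to the library total (horizontal), each with 1 added and averaged over both libraries, for the 85 members in both releases. Ndufa11 and Ndufs4 lie straight above 0 (level changed, counts not), while Atp5l and Atp5g2 lie near the diagonal (counts changed too).

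The other 2 of the 5 differed in counts. Atp5l, the g subunit of the synthase, had 3718 and 5006 counts in M21 and 825 and 1183 in M4, and its level went from 114.57 and 115.89 TPM in M4 to 450.59 and 420.27 in M21. Atp5g2 went the other way, from 1567 and 2145 counts in M4 to 550 and 873 in M21. Near-identical copies held the balance. Copies were defined as annotated genes elsewhere with at least 95% identity over at least 100 bases, and 24 of 83 detected members had one. The search was run for members alone, so no share over all protein-coding genes can be set beside this count, and it is not read as a trait of the set. Of these 24, 19 had a fractional expected count, the sign of shared reads, as did 12 of the 59 without a copy. Over all detected members 31 had one, against 33.5% of detected protein-coding genes.

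For Atp5g2 the copy is Gm10175, a transcribed processed pseudogene on chromosome 7 (23946646 to 23947290) that matched it at 100% over 645 bases. The copies of Atp5g2 held 86.6% of the pooled counts in replicate 1 and 84.7% in replicate 2 under M21, and 61.7% and 62.5% under M4. The pooled count itself was 4091 against 4088 in replicate 1 and 5717 against 5715 in replicate 2. For Atp5l the main copy was Gm10221 on chromosome 5 (24581554 to 24581862), 100% identical over 309 bases, and the copies held 18.9% and 18.3% under M21 but 81% and 79.6% under M4. When the counts of members and copies were added together, a choice made after the values had been seen, 0 of the 85 members differed between releases, while by counts of the members alone 2 did.

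**Figure D5:**
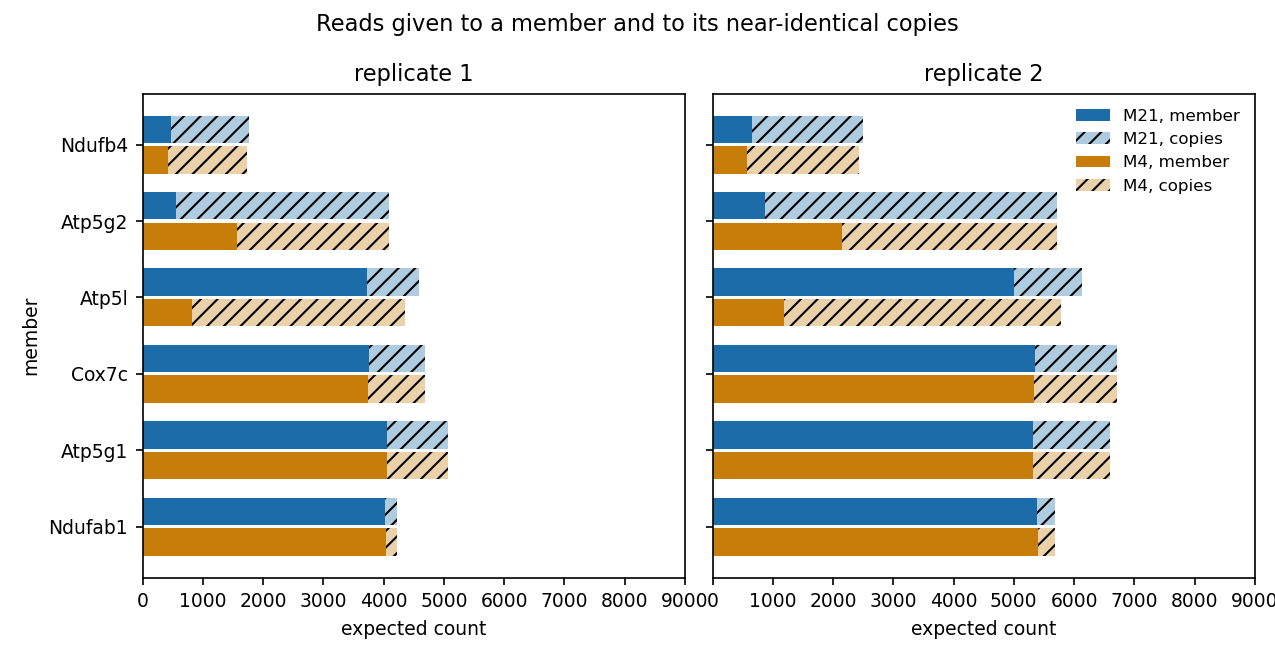
Expected counts given to 6 members (solid) and to their near-identical copies (hatched) under M21 (blue) and M4 (orange), with replicate 1 on the left and replicate 2 on the right. The bars of a gene have nearly the same length in both releases, while the split inside the bar shifts for Atp5g2 and Atp5l.

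Ndufb4, the lowest gene of complex I, had most of its pooled reads on the pseudogene shown above. Ndufb4c was listed at 243.1 and 243.03 TPM and held 73.8% of the pooled counts in both libraries, and in M4 75.6% and 76.2%. Pooled, the pair came to 290.71 and 294.71 TPM, inside the range of the other complex I genes. This sum adds levels taken over unlike lengths, 390 bases for Ndufb4c and 627.5 for Ndufb4 in replicate 1. It is therefore not a level of Ndufb4 itself. Cox7c, a small subunit of complex IV, had a copy in Gm12338 on chromosome 11 (75599763 to 75599954), 100% identical over 192 bases. That copy was listed at 525.25 and 542.52 TPM, above Cox7c itself at 492.67 and 493.35, although it held 901 counts in replicate 1 against 3760. The copy's effective length, the annotated length minus 99 bases, was 93 bases, which turns few counts into a high TPM. Copies of Atp5g1 held 19.9% and 19.4% of its pooled counts, and copies of Ndufab1 4.76% and 5.37%.

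The strand setting of the counting is not given in the sources, so it is not known whether reads of overlapping genes on opposite strands were kept apart. An overlap with another detected gene, on either strand, was found for 22 of 83 detected members, against 28% of detected protein-coding genes. Among them, Cox4i1 overlaps Emc8 by 352 bases, with Emc8 at 204.5 and 201.15 TPM, and Atp5j overlaps Gabpa by 701 bases. None of the alternative isoform genes of complex IV overlapped a detected gene.

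The deposited transcript tables divide each gene's level between its transcripts. The leading transcript carried under 80% of the gene in both libraries for 28 of 73 members with 2 or more transcripts, against 62.7% of detected protein-coding genes. Most divided was Cox6b2, where Cox6b2-203 held 26.87% and 20.53% and Cox6b2-201 held 12.76% and 25.17%, so the libraries did not agree on which led. The retained-intron transcript Cox6b2-205 held 16.8% and 20.75%, above Cox6b2-201 in replicate 1 and above Cox6b2-203 in replicate 2. In Ndufs1, Ndufs1-201 held 41.4% and 46.69%. In Atp5s, Atp5s-205 held 42.33% and 39.38%. Cox6b2-203, Ndufs1-201 and Atp5s-205, which led by the mean share of both libraries, are coding.

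For 9 of the 73 the leading transcript was not annotated as protein-coding, against 10.4% of detected protein-coding genes. They were Ndufa3, Ndufa5, Ndufs4, Ndufa10, Ndufb4, Cox7a2, Cox5b, Atp5j and Atp5f1. For Ndufb4 the transcript shares rest on how reads were divided with Ndufb4c, which matches its coding bases and held 73.8% of the pooled counts. In Ndufa5, an accessory subunit of complex I, the non-coding transcript Ndufa5-204 of 453 bases held 90.38% and 89.42% of the level, 243.96 and 228.54 TPM. In Ndufs4 the leading pair, Ndufs4-202 at 36.33% and 32.27% and Ndufs4-204 at 26.72% and 33.01%, is annotated for nonsense-mediated decay, and coding transcripts held 27% and 25.7%. In Ndufa10, the retained-intron transcript Ndufa10-204 held 32.39% and 26.09%, and coding transcripts 16% and 19.2%. In Cox7a2, the processed transcript Cox7a2-203 of 477 bases held 64.1% and 61.07%, beside the coding Cox7a2-201 of 659 bases at 35.37% and 38.44%. Over all members, coding transcripts held 85% and 85.2% of the TPM, between 81% for complex I and 96.4% for complex II in replicate 1, beside 82.5% and 82.8% over all detected protein-coding genes. These shares are the authors' estimates from short reads, in which transcripts of 1 gene share most of their bases.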

How the data were processed

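The deposited gene and transcript tables of 2 libraries were used, 1 set per annotation release (GENCODE M21 and M4, mm10, per the files' own descriptions). Aligner, quantifier and strand setting: not given in the sources used here. The authors, per the file headers, deposited expected counts, TPM (also as a posterior mean), FPKM and, for transcripts, the percent of the gene each carries. Effective lengths were annotated lengths minus 99 bases. Rows that name no gene (spike-ins at 2.85% and 3.10% of counts, others at 0.000139% and 0.000114%) stayed out of library sizes.

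From these, log2 ratios were computed with a pseudocount of 1 TPM, copies were found with BLAST 2.17.0, and coding sequences were read from the M21 transcripts and aligned with Biopython 1.88 for residue identities. TMM factors (an alternative, on rounded expected counts) came from edgeR 4.0.16, with numpy 2.4.6, pandas 2.3.3 and scipy 1.17.1 for the rest. Totals over rows that name a gene, 27887968 counts in replicate 1 and 39819334 in replicate 2, entered the exact 95% intervals of count ratios. These intervals and those of isoform shares describe counting error only. The labels call the libraries biological replicates from separate pools. Named in full were the 3 highest and 3 lowest genes of each complex, all isoform genes, the 5 largest replicate ratios per direction, the 5 largest release differences and the 5 lowest leading transcript shares. Other lists were named by up to 4 genes, regulators and tissue markers more freely. The members and lists were chosen with earlier results of these data known.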

Additional observations from a re-analysis of the deposited data

Results flagged for a closer look

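There were 4 features with the name of a member but outside the rule, since M21 does not call them protein-coding, that reached a TPM of at least 1 and more than 3 counts in both libraries. Ndufb4c, a processed pseudogene, stood at a mean of 243.065 TPM. Ndufb1-ps, which M21 lists as a bidirectional promoter lncRNA, stood at 163.415 TPM, on 1610 and 2293 counts. Cox6c2, the single symbol that fits the naming rule without being protein-coding, stood at 6.98 TPM on 19.92 counts in each library, and the pseudogene Ndufab1-ps at 1.38 TPM.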

How the results depend on the processing

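Counts of detected and of highly expressed members moved by less than 1.5 times under every alternative run (posterior mean TPM, FPKM, release M4, other minimums, each library alone, copies added). Median levels were recomputed by complex. As FPKM, which has its own scale, the medians were 146.87 for complex I, 119.57 for II, 214.55 for III, 203.808 for IV and 281.84 for V. With the posterior mean TPM complex II came to 183.243, and with release M4 it came to 193.79 and complex IV to 299.017. Complex IV came to 399.185 over detected members only, to 376.06 with Ndufa4 counted in it, and to 11.27 without fractional counts, since that leaves mainly its isoform genes. Complex V came to 473.452 without fractional counts.

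Isoform shares, as means of both libraries, moved as follows. By expected counts they were 1.53% for Cox4i2, 6.61% for Cox6b2, 0.485% for Cox7a1, 0.166% for Cox8b and 31.1% for Atp5g1. By the posterior mean TPM they were 1.58% for Cox4i2, 8.15% for Cox6b2, 0.77% for Cox7a1, 0.0619% for Cox7b2, 0.312% for Cox8b, 0.0194% for Cox8c and 4.96% for Atp5g2. With release M4 they were 6.58% for Cox6b2, 1.19% for Cox7a1, 32.4% for Atp5g1 and 10.7% for Atp5g2, and with copies added, chosen after seeing the data, Atp5g2 came to 23.8%.

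The single member past the replicate threshold was lost with a pseudocount of 5 and with a mean TPM minimum of 5, giving 0 members where 0.486% and 1.22% of all genes passed. Spike-in scaling moved the members' median log2 ratio to -0.19 and that of all genes to -0.13. No median reversed its sign, over all members or within a complex. Members differing between releases numbered 2 by expected counts and 0 with the counts of copies added, also chosen after seeing the data. YY1 matches fell to 1.45% before the start site. The causes were not tested. No paired analysis was possible because there is 1 group. Intervals of members with under 100 counts, such as Cox8b and Cox7a1, are wide.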
